A study of Mus musculus with 24 samples.

Results

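Of the 24 libraries, the 12 from B cell progenitors, taken by their cell population label, carry a 2 by 2 design in which Plcg1, Plcg2, both or neither were lost. This design asks whether the loss of both genes changed a transcript by more or less than the losses of Plcg1 and of Plcg2 added together on the log2 scale. The departure from additivity is the mean log2 level in Plcg1-/-Plcg2-/- cells minus that in Plcg1-/-Plcg2+/+ cells minus that in Plcg1+/+Plcg2-/- cells plus that in Plcg1+/+Plcg2+/+ cells, with 3 libraries per genotype. A departure of 0 means that both effects multiplied, and a departure of -1 means that the double-deficient level was 0.5 of that product. The cells came from bone marrow of irradiated CD45.1+ wild-type recipients that had been transplanted with marrow of YFP MxCre donors, in which Cre is driven by the interferon-inducible Mx promoter and was induced with poly(I-C). Plcg1 was deleted from floxed alleles after that induction and Plcg2 was absent from the germline, and all 4 genotypes shared the MxCre and Rosa-YFP transgenes, poly(I-C) and transplantation. The cells were sorted as B220+IgM-IL-7R+. The donors were of a mixed 129 and C57BL/6 background, and how many donors stood behind the 3 recipients of a genotype is not given in the sources used here, so the tests measure the spread between recipients.

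PLCgamma1 and PLCgamma2 are phospholipases that cleave the membrane lipid PIP2 into diacylglycerol, which activates protein kinase C and Ras, and IP3, which releases calcium. Both are activated downstream of tyrosine kinases at the pre-B cell receptor and at cytokine receptors. Because they catalyse the same reaction, loss of either can be buffered by the other, and a gene that depends on their common product can change in the double-deficient cells alone. B cell progenitors at the sorted stage grow in response to IL-7, rearrange their immunoglobulin genes with the Rag recombinase and pair the new heavy chain with the surrogate light chain.

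Reads on genes ranged from 1479582 to 25057223 per library, so that 3 reads corresponded to between 0.12 and 2.03 CPM (the count scaled to depth), a limit that covers counting error only. Levels below are CPM scaled by TMM factors. Plcg2 had 215, 243 and 246 CPM in the Plcg1+/+Plcg2+/+ libraries, 184, 201 and 233 CPM in the Plcg1-/-Plcg2+/+ libraries, 94.9, 96.5 and 79.6 CPM in the Plcg1+/+Plcg2-/- libraries and 72.7, 91.2 and 111 CPM in the Plcg1-/-Plcg2-/- libraries. The libraries labelled Plcg2-/- were thus lower than all others, and the departure of Plcg2 was 0.21 on the log2 scale (standard error 0.23). Plcg1 lay between 56.5 and 183 CPM with overlapping genotypes, a departure of 0.57 and a standard error of 0.48, and whole-gene counts do not show the loss of the floxed exons. The 6 libraries labelled Plcg1-/- had between 1500.3 and 2209 CPM of Xist against 49.5 to 123 CPM in the others, so the Plcg1 genotype and sex-linked transcripts cannot be told apart in a comparison of Plcg1-/- with Plcg1+/+ cells. The Plcg1-/- genotypes enter the departure with opposite signs, and the departure of Xist was -0.51 (standard error 0.40). A difference by sex that is the same with and without Plcg2 thus drops out. One that differs with Plcg2 cannot be told apart from a departure. The defining genes of B cell progenitors (12 genes, among them Cd79a, Ebf1 and Rag1) summed to between 3337 and 10790 CPM, and neutrophil and monocyte genes (16 genes, among them Mpo and Elane) to between 1961 and 12085 CPM. The highest neutrophil and monocyte sum of each knockout genotype, 12085, 11602 and 11000 CPM, was in its replicate 1, and those 3 libraries had the lowest sum of B cell progenitor genes of their genotype.

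The share of reads that fell on no annotated gene also followed the design. It was 71.4%, 62.5% and 59.9% in the Plcg1+/+Plcg2+/+ libraries and 61.4%, 60.3% and 63.0% in the Plcg1-/-Plcg2-/- libraries, but 66.5%, 87.3% and 73.6% in the Plcg1-/-Plcg2+/+ libraries and 63.8%, 75.8% and 74.9% in the Plcg1+/+Plcg2-/- libraries. The share was 63.1% ± 4.25 (SD, n = 6) over the wild-type and double-deficient libraries and 73.7% ± 8.27 (SD, n = 6) over the single-deficient libraries. The single-deficient libraries were higher on average and overlapped the others, with Plcg1+/+Plcg2+/+ replicate 1 above replicate 1 of both single-deficient genotypes. The share itself departed from additivity by -21.1 percentage points (exact two-sided permutation test of 6 against 6 libraries, p = 0.0173, Benjamini-Hochberg adjusted p = 0.0397 over 5 library measures, smallest possible p 0.00216). The departure was -15.4 points without Plcg1-/-Plcg2+/+ replicate 2, the library with the highest share (exact permutation p = 0.0346).

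Transcripts that blood cells do not use moved with this share. Olfactory, vomeronasal and trace amine receptors, 1471 genes matched by symbol and silent in blood cells, summed to 488, 131 and 46.9 CPM in the Plcg1+/+Plcg2+/+ libraries and to 101, 58.2 and 147 CPM in the Plcg1-/-Plcg2-/- libraries. The same sum was 234, 2216 and 495 CPM in the Plcg1-/-Plcg2+/+ libraries and 113, 744 and 750 CPM in the Plcg1+/+Plcg2-/- libraries. The summed level followed the share of reads on no gene across the 12 libraries (Pearson's r = 0.974 with the log2 sum, Spearman's rho = 0.972, each with permutation p = 1e-05, the smallest that 100000 resamples can give), and r was 0.972 without the libraries farthest from the median share. On the log2 scale the sum departed from additivity by -4.20 (exact permutation p = 0.0238, adjusted p = 0.0397). The share of ambiguous reads, which 2 genes could claim, departed by 0.23 percentage points (exact permutation p = 0.0173, adjusted p = 0.0397). Log2 reads on genes departed by 1.82 (exact permutation p = 0.208, adjusted p = 0.26) and the number of genes with a read by -2770 (exact permutation p = 0.323, adjusted p = 0.323).

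**Figure D1:**
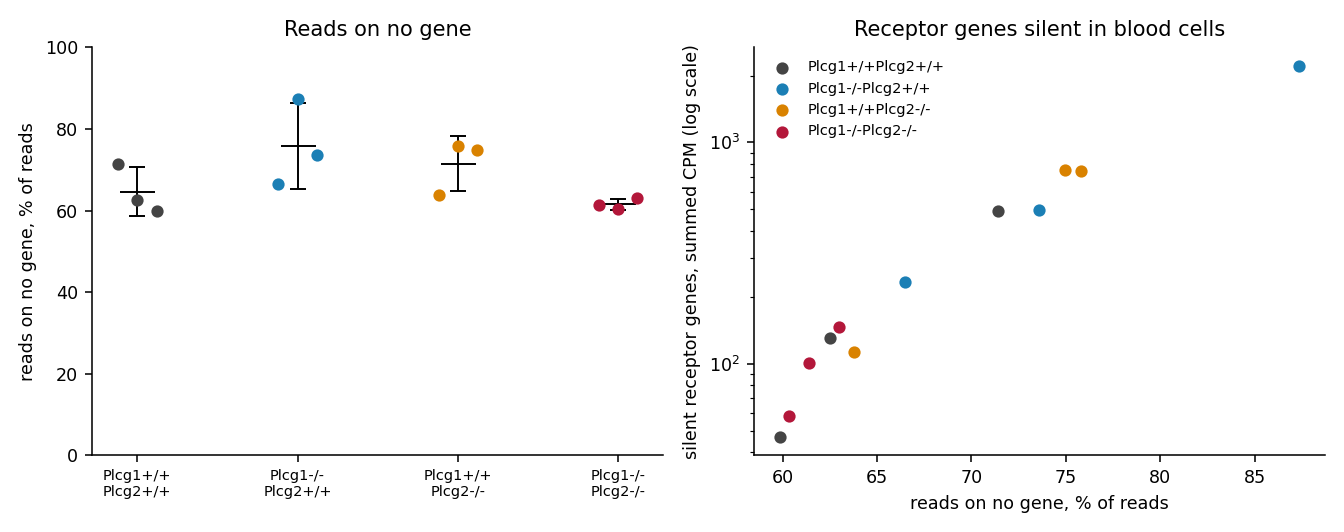
Left, percent of reads on no annotated gene in each of the 12 libraries by genotype, with the mean and SD of 3 libraries. Right, the summed CPM of 1471 receptor genes silent in blood cells (log scale) against that percent; the library at 87.3% has 2216 CPM and the one at 59.9% has 46.9 CPM.

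Across the transcriptome, 4 of 15001 tested genes departed from additivity. Calls needed edgeR's quasi-likelihood test to give an adjusted p (Benjamini-Hochberg) no higher than 0.05 and a log2 departure of at least 0.5 in size. Eps8l1 lay above the sum of the single effects (1 gene, 0.00667% of those tested), and Serinc3, 0610039K10Rik and Mmp14 lay below it (3 genes, 0.02%). At an unadjusted p of at most 0.05, 294 genes (1.96%) lay above and 2000 genes (13.3%) below. DESeq2 on the same genes called 37 above (0.247%) and 605 below (4.03%), with the 4 edgeR calls among them. The median standard error of a departure was 0.38 and the median half-width of its 95% interval 0.83. That interval covers 1 gene without adjustment over the 15001 tested, and a call mostly needed a larger departure. Acy3, with 2.49 (standard error 0.54), had an edgeR adjusted p of 0.187. Genes without a call are thus not shown to be additive with 3 libraries per genotype.

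The counts changed when single libraries were left out and when the share of reads on no gene was taken into account. Leaving out Plcg1+/+Plcg2+/+ replicate 2 or 3, Plcg1-/-Plcg2+/+ replicate 1 or 3 or Plcg1+/+Plcg2-/- replicate 2 left 0 calls in edgeR, with between 186 and 635 genes above and between 1767 and 3212 below at an unadjusted p of at most 0.05. Leaving out Plcg1+/+Plcg2+/+ replicate 1 or Plcg1-/-Plcg2+/+ replicate 2 left 1 call, leaving out Plcg1+/+Plcg2-/- replicate 1 or 3 or Plcg1-/-Plcg2-/- replicate 2 or 3 left 2, and leaving out Plcg1-/-Plcg2-/- replicate 1 gave 5. With the percent on no gene as a covariate, edgeR called 0 genes, 812 lay above and 1123 below at an unadjusted p of at most 0.05, and DESeq2 called 62 above and 58 below. Without the 5 libraries that had over 70% of reads on no gene, edgeR called 0 of 13852 genes, with 1071 above and 715 below at an unadjusted p of at most 0.05, and DESeq2 called 85 above and 23 below. This last fit leaves each single-deficient genotype with 1 library, its replicate 1, which is assumed to vary like the other genotypes. The B cell progenitor genes summed to 3337 and 3422 CPM in these libraries. The sums were 6416 and 4636 CPM in the Plcg1+/+Plcg2+/+ libraries kept and 3592 to 10790 CPM in the Plcg1-/-Plcg2-/- libraries. Within each single-deficient genotype this sum was also higher where the share on no gene was higher. The part of cell content in the values of this fit and of the covariate fits was not tested.

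The excess of genes below the sum lay among genes of low level. In the quartile of genes with the lowest level, from 0.44 to 3.46 CPM, the median departure was -2.82, and 1663 of the 2000 genes with an unadjusted p of at most 0.05 below the sum were in it. The median effect in this quartile was 1.53 in Plcg1-/-Plcg2+/+ cells, 0.96 in Plcg1+/+Plcg2-/- cells and -0.27 in Plcg1-/-Plcg2-/- cells, each against Plcg1+/+Plcg2+/+ cells. These low genes were thus higher on average with single losses. Their sum before TMM scaling was 4528 to 18077 CPM there, 2914 to 5518 CPM in the Plcg1+/+Plcg2+/+ libraries and 3057 to 4578 CPM in the Plcg1-/-Plcg2-/- libraries. The filter admitted a gene with enough reads in as few as 3 libraries. A low gene could thus enter through the libraries where it was high, which by itself favours a negative median. With the percent on no gene as a covariate the median departure of this quartile was -0.31, and without the libraries over 70% it was -0.51. In the other quartiles, from low to high level, the median departure was -0.11, 0.10 and 0.13, and over all tested genes it was -0.02. At an unadjusted p of at most 0.05, 284, 33 and 20 genes of 3750 each lay below in these quartiles, and 80, 123 and 87 above. The share of 13.3% below is thus mostly that of low genes and is too high a background for lists of higher level. Among the 2000 genes, 61.2% had a double-deficient effect opposite to the larger single effect, beside 10.6% of all tested genes. An effect in single-deficient cells alone was seen in 25.3% (12.2% of all tested genes). An effect in double-deficient cells alone was seen in 2.3% (8.0% of all), each with 0.5 on the log2 scale as the limit. Among the 294 genes above, 26.9% had an effect in double-deficient cells alone. These groups are formed from the same effects as the departure, so the shares describe it and do not test it.

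**Figure D2:**
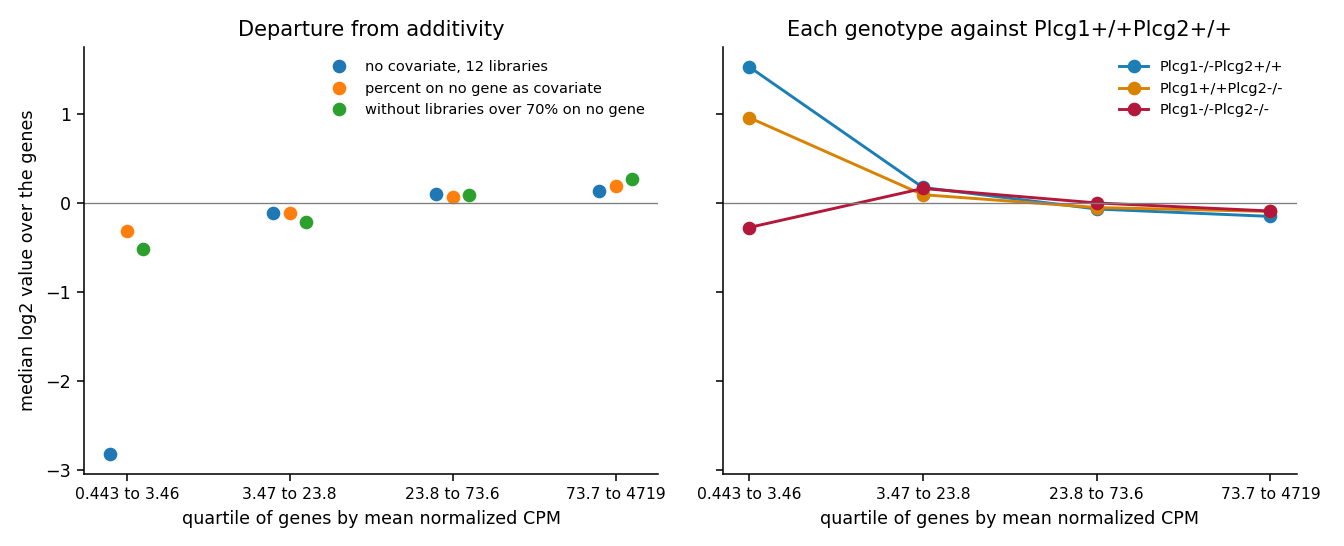
Median log2 values over the genes of each quartile of mean normalized CPM. Left, the departure from additivity with 12 libraries, with the percent on no gene as a covariate, and without the 5 libraries over 70%; in the lowest quartile the 3 values are -2.82, -0.31 and -0.51. Right, the effect of each genotype against Plcg1+/+Plcg2+/+, where both single losses lie above 0 in the lowest quartile.

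Serinc3, a multipass membrane protein known for restricting the infectivity of retroviral particles, was the most abundant gene called. It had 1766, 1921 and 1692 CPM in the Plcg1+/+Plcg2+/+ libraries, 1319.8, 1664 and 1373 CPM in the Plcg1-/-Plcg2+/+ libraries, 2405, 3196 and 2730.5 CPM in the Plcg1+/+Plcg2-/- libraries and 469.7, 320.0 and 574 CPM in the Plcg1-/-Plcg2-/- libraries. The double-deficient libraries lay below all others, while loss of Plcg2 alone went with the highest levels. The departure was -2.31 (standard error 0.29, 95% interval -2.93 to -1.68, edgeR adjusted p = 0.0244), that is 0.202 of the level that both single effects gave when multiplied. The effect against wild type was -0.30 for loss of Plcg1 (standard error 0.20, adjusted p = 0.485), 0.63 for loss of Plcg2 (standard error 0.20, adjusted p = 0.919) and -1.98 for both (standard error 0.21, adjusted p = 8.96e-04), all from edgeR.

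0610039K10Rik is a non-coding gene whose start lies inside Serinc3 on the opposite strand. It had 139, 106 and 115 CPM in the Plcg1+/+Plcg2+/+ libraries, 92.9, 74.9 and 89.2 CPM in the Plcg1-/-Plcg2+/+ libraries, 175, 205 and 174 CPM in the Plcg1+/+Plcg2-/- libraries and 33.1, 27.5 and 37.2 CPM in the Plcg1-/-Plcg2-/- libraries. Its order of genotypes was that of Serinc3, and its departure was -2.02 (standard error 0.22, edgeR adjusted p = 0.0138). On mm10, Serinc3 lies on chromosome 2 from 163623273 to 163645149 and 0610039K10Rik from 163644850 to 163645800, so that 300 bases belong to both. The library kit does not mark strand, and reads on these bases cannot be assigned to either gene. The reads counted on 0610039K10Rik were between 4.50% and 8.60% of those counted on Serinc3 in each B cell progenitor library and between 0.138% and 0.271% in each CLP library, described below, so they were not a fixed share of Serinc3 reads. Because of the shared bases the calls are not counted as independent. The bases before each start are shown because each window lies within the other gene. The 0610039K10Rik window ends at 163644843, short of the start at 163644850 given above. Both are from RefSeq on GRCm38.p6, 5′ to 3′, with CG dinucleotides in capitals.
Serinc3 (chr2:163645150-163645393, minus strand): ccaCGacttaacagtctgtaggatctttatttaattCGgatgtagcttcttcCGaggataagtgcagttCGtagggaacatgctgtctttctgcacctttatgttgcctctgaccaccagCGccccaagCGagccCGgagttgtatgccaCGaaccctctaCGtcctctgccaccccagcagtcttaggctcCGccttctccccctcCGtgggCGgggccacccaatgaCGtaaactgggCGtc
0610039K10Rik (chr2:163644600-163644843, plus strand): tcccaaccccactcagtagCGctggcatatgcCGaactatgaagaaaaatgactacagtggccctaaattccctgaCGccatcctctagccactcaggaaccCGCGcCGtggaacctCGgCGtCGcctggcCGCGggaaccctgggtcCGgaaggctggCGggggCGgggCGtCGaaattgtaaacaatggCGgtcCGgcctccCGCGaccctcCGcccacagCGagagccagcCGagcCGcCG
The motif searched was CG, which reads the same on both strands. The Serinc3 window lies in 0610039K10Rik and holds 14, and 28.4% of 32851 windows of the same length before a start hold as many. The 0610039K10Rik window lies within Serinc3 and holds 25, a number that 10.04% of windows reach, and 91.9% of windows hold at least 1.

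Serinc3 lies 2.85 Mb from Plcg1 on the same chromosome, and the genes next to it were looked at after its value was seen. Within 100 kb of it 6 genes were tested, itself and 0610039K10Rik included. Pkig, an inhibitor of protein kinase A, had 187, 218 and 156 CPM in the Plcg1+/+Plcg2+/+ libraries and 48.9, 52.1 and 70.5 CPM in the Plcg1-/-Plcg2-/- libraries, with single-deficient libraries between 95.3 and 310 CPM. Its departure was -1.50 (standard error 0.40, unadjusted p = 0.00292, edgeR adjusted p = 0.187), and -0.44 with the percent on no gene as a covariate. Ttpal, on the other side, had a departure of the opposite sign, 1.65 (standard error 0.47, unadjusted p = 0.00422, edgeR adjusted p = 0.187). Ada and Hnf4a had departures of 0.93 and -3.04 with adjusted p of 0.55 and 0.369.

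Eps8l1, an actin regulator of the Eps8 family, was low in a single genotype. It had 23.2, 18.3 and 17.6 CPM in the Plcg1+/+Plcg2+/+ libraries, 10.6, 11.8 and 17.02 CPM in the Plcg1-/-Plcg2+/+ libraries, 2.01, 1.56 and 4.08 CPM in the Plcg1+/+Plcg2-/- libraries and 10.9, 22.9 and 21.6 CPM in the Plcg1-/-Plcg2-/- libraries. The Plcg1+/+Plcg2-/- libraries lay below all others, and the double-deficient libraries overlapped wild type. Loss of Plcg2 alone gave -3.23 (standard error 0.40, edgeR adjusted p = 0.0187) and loss of both -0.07 (standard error 0.31, edgeR adjusted p = 0.949). The departure was 3.75 (standard error 0.51, 95% interval 2.63 to 4.87, edgeR adjusted p = 0.0342).

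Mmp14, a membrane-anchored matrix metalloproteinase, was higher in both single-deficient genotypes. It had 2.70, 1.94 and 3.15 CPM in the Plcg1+/+Plcg2+/+ libraries, 7.70, 10.8 and 14.1 CPM in the Plcg1-/-Plcg2+/+ libraries, 12.1, 17.1 and 9.53 CPM in the Plcg1+/+Plcg2-/- libraries and 5.62, 3.19 and 4.67 CPM in the Plcg1-/-Plcg2-/- libraries. The single-deficient libraries did not overlap the other 6. Loss of Plcg1 gave 2.05 (standard error 0.34, edgeR adjusted p = 0.0954), loss of Plcg2 2.34 (standard error 0.35, adjusted p = 0.0458) and loss of both 0.73 (standard error 0.35, adjusted p = 0.426). The departure was -3.65 (standard error 0.49, 95% interval -4.72 to -2.59, edgeR adjusted p = 0.0342).

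With the percent on no gene as a covariate, the departures of the called genes were -1.90 for Serinc3, -2.0 for 0610039K10Rik, 3.97 for Eps8l1 and -3.37 for Mmp14. With 1 library left out at a time, the calls held in 7 of 12 fits for 0610039K10Rik, 4 for Serinc3, 2 for Eps8l1 and 1 for Mmp14. With the covariate, the edgeR adjusted p lay between 0.102 and 0.271, and DESeq2 with the same covariate still called all 4. Without the libraries over 70% the departures were -1.96, -2.20, 3.95 and -3.07, each with an edgeR adjusted p of 0.385. The sizes thus stayed close to those of the 12 libraries while the edgeR calls were lost.

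BC002163 had the pattern of Eps8l1 for the other gene, low with loss of Plcg1 alone. It had 9.89, 7.64 and 7.42 CPM in the Plcg1+/+Plcg2+/+ libraries and 1.12, 2.47 and 0.347 CPM in the Plcg1-/-Plcg2+/+ libraries, against 8.45, 8.18 and 10.9 CPM in the Plcg1+/+Plcg2-/- libraries and 9.92, 9.66 and 6.93 CPM in the Plcg1-/-Plcg2-/- libraries. The Plcg1-/-Plcg2+/+ libraries lay below the other 9. Its departure was 2.57 (standard error 0.63, unadjusted p = 0.00147, edgeR adjusted p = 0.187, DESeq2 adjusted p = 0.0125).

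**Figure D3:**
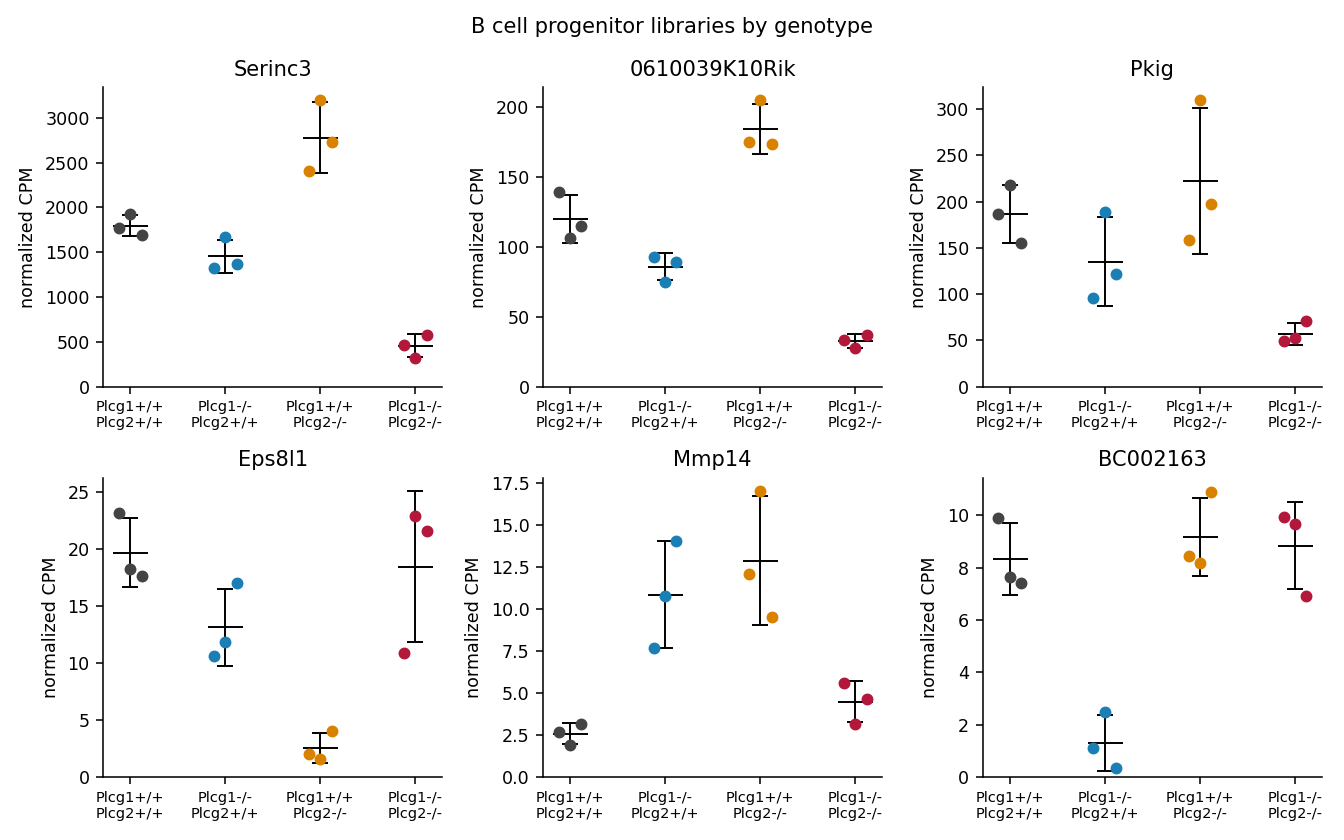
Normalized CPM of 6 genes in each B cell progenitor library by genotype, with the mean and SD of 3 libraries. Serinc3, 0610039K10Rik and Pkig are lowest in Plcg1-/-Plcg2-/- libraries, Eps8l1 in Plcg1+/+Plcg2-/- libraries and BC002163 in Plcg1-/-Plcg2+/+ libraries, and Mmp14 is highest with either single loss.

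Most MHC class II genes, 8 of 10, lay below additivity. Their median effect was negative in double-deficient cells and above 0 in both single-deficient genotypes. MHC class II molecules present peptides on B cells, macrophages and dendritic cells. Of 10 genes of the class II list, 6 had an unadjusted p of at most 0.05 below the sum, against 13.3% of all tested genes, and 0 above. None passed the edgeR threshold, and DESeq2 called 2. The median departure was -1.44, beside -0.02 for all tested genes and -2.82, -0.11, 0.10 and 0.13 for the quartiles of level. The median effect was 0.39 with loss of Plcg1, 0.09 with loss of Plcg2 and -0.95 with loss of both.

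Ciita, the transactivator of the class II genes, had 44.6, 41.2 and 41.5 CPM in the Plcg1+/+Plcg2+/+ libraries, 44.3, 35.6 and 47.9 CPM in the Plcg1-/-Plcg2+/+ libraries, 31.4, 61.9 and 20.4 CPM in the Plcg1+/+Plcg2-/- libraries and 11.9, 5.27 and 8.67 CPM in the Plcg1-/-Plcg2-/- libraries. The double-deficient libraries lay below the other 9, and neither single loss moved the mean by more than 0.10 on the log2 scale. The departure of Ciita was -2.29 (standard error 0.50, 95% interval -3.38 to -1.21, unadjusted p = 5.94e-04, edgeR adjusted p = 0.187, DESeq2 adjusted p = 0.0167). Loss of both genes against wild type gave -2.39 (standard error 0.37, edgeR adjusted p = 0.00926).

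Cd74, the invariant chain that escorts class II molecules, had 291, 386 and 511 CPM in the Plcg1+/+Plcg2+/+ libraries, 699.5, 375.5 and 563 CPM in the Plcg1-/-Plcg2+/+ libraries, 604, 463 and 331 CPM in the Plcg1+/+Plcg2-/- libraries and 269, 78.6 and 239 CPM in the Plcg1-/-Plcg2-/- libraries. The double-deficient libraries were the lowest 3, with a departure of -1.73 (standard error 0.57, unadjusted p = 0.0104, edgeR adjusted p = 0.196). The beta chain gene H2-Ab1 had a departure of -1.17 (standard error 0.27, unadjusted p = 8.74e-04, edgeR adjusted p = 0.187, DESeq2 adjusted p = 0.0167), with 121, 94.8 and 121 CPM in the double-deficient libraries and 163 to 269 CPM in the others. The chain genes H2-Aa and H2-Eb1 and the peptide-loading gene H2-DMb2, which the naming rule did not pick, had departures of -1.71, -1.82 and -1.93 with unadjusted p of 0.0108, 0.0115 and 0.0159 and edgeR adjusted p of 0.196, 0.197 and 0.212. H2-DMa and H2-DMb1 had -0.53 and -0.75, and H2-Oa and H2-Ob, which encode the modulator of peptide loading, had 0.72 and 0.63.

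The class II median was -1.88 with the percent on no gene as a covariate and -1.46 without the libraries over 70%, and each library left out in turn gave between -1.60 and -1.05. Markers of other cells that carry class II molecules were read beside it. The summed level of 15 macrophage genes was 114 to 255 CPM in the Plcg1+/+Plcg2+/+ libraries, 229 to 442 CPM in the Plcg1-/-Plcg2+/+ libraries, 170 to 435 CPM in the Plcg1+/+Plcg2-/- libraries and 193 to 456 CPM in the Plcg1-/-Plcg2-/- libraries, with Marco at 0 in 1 Plcg1+/+Plcg2-/- and 1 Plcg1-/-Plcg2-/- library and Spic at 0 in 1 Plcg1+/+Plcg2-/- library. The summed level of 10 mature B and plasma cell genes was 1018 to 1601 CPM, 1169 to 1487 CPM, 971 to 2682 CPM and 782 to 2620 CPM in the same order of genotypes. Its members differed in direction. Before TMM scaling, Jchain had 457 to 2123 CPM in the Plcg1-/-Plcg2-/- libraries against 131 to 417 CPM in the Plcg1+/+Plcg2+/+ libraries. Fcer2a had 0.84 to 5.08 against 11.3 to 17.7 CPM, Cr2 1.60 to 4.81 against 7.94 to 9.74 CPM and Cd22 32.3 to 49.1 against 119 to 135 CPM. Their part in the class II values was not tested, and in sorted bulk cells fewer cells of a type and less RNA per cell cannot be told apart.

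**Figure D4:**
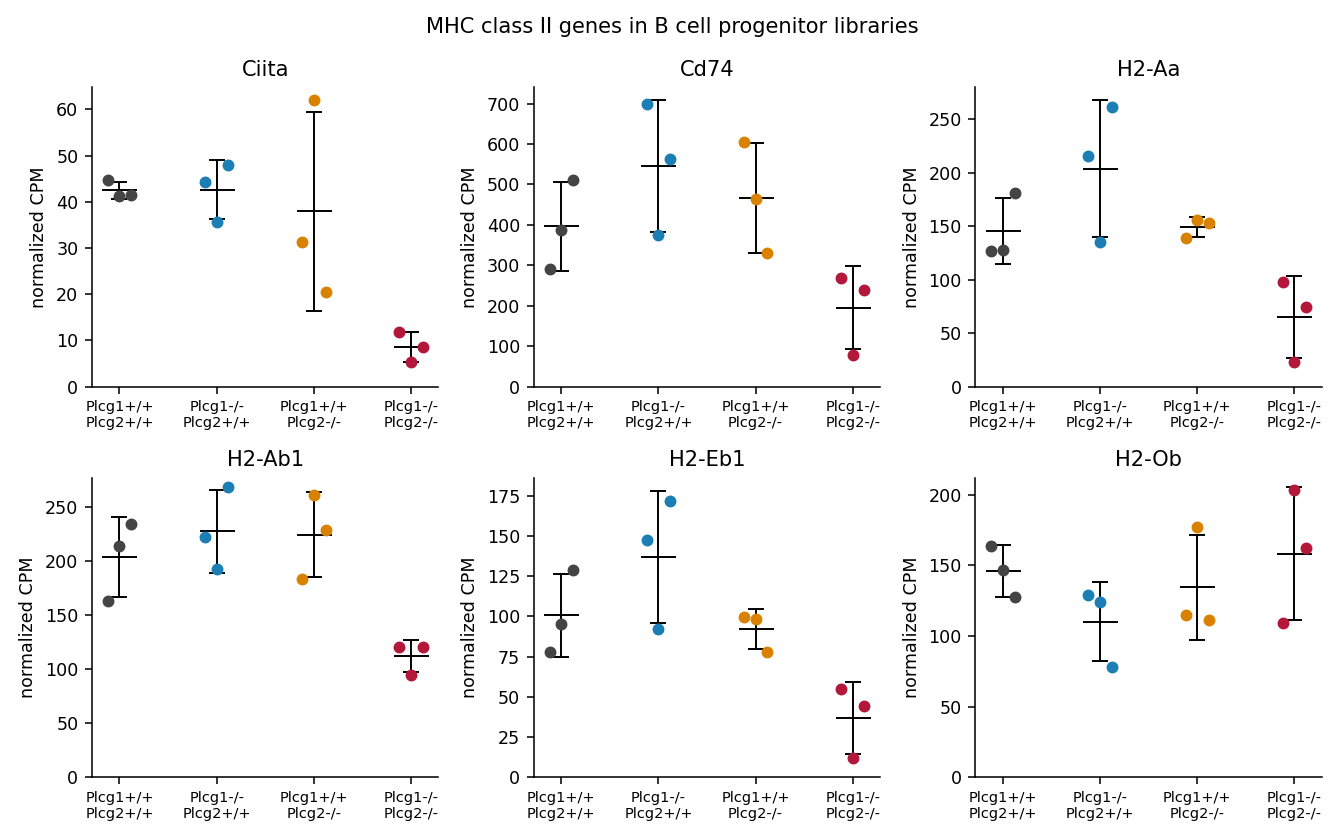
Normalized CPM of 6 MHC class II genes in each B cell progenitor library by genotype, with the mean and SD of 3 libraries. Ciita and H2-Ab1 in the 3 Plcg1-/-Plcg2-/- libraries lie below all other libraries, and H2-Ob, with a departure of 0.63, does not share the pattern.

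Mature B cell genes had a negative median departure too. Of 10 tested genes of the mature B and plasma cell list, 3 had an unadjusted p of at most 0.05 below the sum and 0 above, beside 13.3% and 1.96% of all tested genes, with a median departure of -1.15. Cd22, an inhibitory co-receptor of the B cell receptor, had 126 to 144 CPM in the Plcg1+/+Plcg2+/+ libraries, 80.4 to 143 CPM in the Plcg1-/-Plcg2+/+ libraries, 102 to 165 CPM in the Plcg1+/+Plcg2-/- libraries and 34.4 to 48.9 CPM in the Plcg1-/-Plcg2-/- libraries. The double-deficient libraries did not overlap the others. Its departure was -1.30 (standard error 0.33, unadjusted p = 0.00182, edgeR adjusted p = 0.187, DESeq2 adjusted p = 0.0234). The complement receptor gene Cr2 had -2.25 (standard error 0.62) and the low-affinity IgE receptor gene Fcer2a -2.40 (standard error 1.09), with unadjusted p of 0.00332 and 0.0483 and edgeR adjusted p of 0.187 and 0.322.

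The surrogate light chain genes lay on the other side. Vpreb1 and Vpreb2 encode near-identical proteins of the pre-B cell receptor, and how reads on both were counted is not given in the sources used here. Vpreb1 had 234, 227 and 151 CPM in the Plcg1+/+Plcg2+/+ libraries, 58.1, 228 and 174 CPM in the Plcg1-/-Plcg2+/+ libraries, 77.6, 227 and 269 CPM in the Plcg1+/+Plcg2-/- libraries and 223, 669 and 530.1 CPM in the Plcg1-/-Plcg2-/- libraries. In the double-deficient genotype 2 libraries lay above all others and replicate 1 did not. The departures were 1.73 for Vpreb1 and 2.23 for Vpreb2 (standard errors 0.75 and 0.78, unadjusted p = 0.0399 and 0.0148, edgeR adjusted p = 0.297 and 0.208). They were 3.83 and 4.15 with the percent on no gene as a covariate.

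Of 20 genes of the pre-B cell receptor list, 2 lay above and 1 below at an unadjusted p of at most 0.05, with a median departure of 0.33. Over all tested genes the shares at that p were 1.96% above and 13.3% below, for this list and for every list that follows. The V(D)J recombination list of 15 genes had 0 above and 1 below. Polm, an end-joining polymerase, was that gene, with 102 to 138 CPM in the Plcg1+/+Plcg2+/+ libraries, 48.3 to 141 CPM in the single-deficient libraries and 10.2 to 24.7 CPM in the double-deficient libraries. Its departure was -1.69 (standard error 0.54, unadjusted p = 0.00834, edgeR adjusted p = 0.192). Rag1, a subunit of the recombinase, and Dntt, the template-free polymerase of rearranging cells, had departures of 1.44 and 2.23 with standard errors of 0.70 and 1.06 and edgeR adjusted p of 0.362 and 0.347. Their spread within the double-deficient genotype was wide, from 392 to 2048 CPM for Rag1 and from 245 to 2117 CPM for Dntt. Their departures were 2.48 and 4.15 with the percent on no gene as a covariate.

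The transcription factors that specify the B lineage gave departures on both sides of 0. Of 26 genes, 13 lay above 0 and 13 below, with a median of 0.02, and 1 gene passed an unadjusted p of 0.05. That gene was Ikzf3, which encodes Aiolos, with a departure of -1.15 (standard error 0.51, unadjusted p = 0.0441, edgeR adjusted p = 0.309) and 38.0 to 75.1 CPM in the double-deficient libraries against 83.0 to 339 CPM in the others. Ebf1, Pax5 and Tcf3, which encode central activators of the B lineage, had departures of 0.78, -0.10 and 0.37 with standard errors of 0.75, 0.48 and 0.47, and the sign of Pax5 changed with the processing. Ebf1 had 2.12 and Tcf3 1.26 with the percent on no gene as a covariate. The loss of both genes against wild type gave -0.18 for Ebf1, -0.80 for Pax5 and -0.58 for Tcf3, and Bcl11a, another factor of early B cells, had a departure of 0.56 (standard error 0.31).

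IL-7 pathway genes gave departures on both sides of 0. Of 22 genes of the IL-7 receptor, JAK, STAT5 and target list, 0 lay above and 1 below at an unadjusted p of at most 0.05, with a median of 0.06. Il7r, the receptor chain used for the sort, had 462, 507 and 317 CPM in the Plcg1+/+Plcg2+/+ libraries, 157, 396 and 286 CPM in the Plcg1-/-Plcg2+/+ libraries, 161, 471 and 255 CPM in the Plcg1+/+Plcg2-/- libraries and 153, 424 and 353 CPM in the Plcg1-/-Plcg2-/- libraries. The genotypes overlapped, and the departure was 0.68 (standard error 0.63, edgeR adjusted p = 0.713). It was 2.19 with the percent on no gene as a covariate (unadjusted p = 0.0104, edgeR adjusted p = 0.291) and 2.31 without the libraries over 70% (unadjusted p = 0.0241, edgeR adjusted p = 0.385). The survival kinase gene Pim2 was the gene below, with -0.78 (standard error 0.28, unadjusted p = 0.0153, edgeR adjusted p = 0.21), 13.7 to 15.5 CPM in the double-deficient libraries and 17.7 to 35.4 CPM in the others. The cyclin gene Ccnd2 and the STAT5 target Cish had -0.61 and 1.05 with standard errors of 0.35 and 0.81.

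The signalling genes next to the lost enzymes had values on both sides of 0, and edgeR called none of them. In the list of PLC family, diacylglycerol kinase, protein kinase C and Ras activator genes the median was -0.04. At an unadjusted p of at most 0.05 in edgeR, 2 of 34 lay above and 5 below, where 1.96% of all tested genes lay above and 13.3% below. The count below is near that share. Rasgrp2, an activator of Rap and Ras that binds diacylglycerol and calcium, had 335, 607 and 445 CPM in the double-deficient libraries and 219 to 299 CPM in the others, a departure of 0.80 (standard error 0.29, unadjusted p = 0.0176, edgeR adjusted p = 0.221). Plcb1 and Plce1, other phospholipases of low level, had -1.68 and -4.82 with edgeR adjusted p of 0.21 and 0.19, and with the percent on no gene as a covariate -2.42 and -0.75. In the calcium list 0 of 19 lay above and 1 below, Rcan2, a calcineurin regulator, with -3.83 (standard error 1.10) and -1.46 under that covariate. The calcineurin subunit gene Ppp3ca had 0.32 (standard error 0.17).

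Immediate early genes and ERK feedback genes had a median of -0.23 over 28 genes, with 0 above and 2 below at an unadjusted p of at most 0.05. The median was -0.26 with the percent on no gene as a covariate and 2.19 without the libraries over 70%. Its sign thus depended on the libraries kept. Spred1, a feedback inhibitor of the ERK pathway, had -0.53 (standard error 0.21, unadjusted p = 0.0285, edgeR adjusted p = 0.257), with 38.1 to 49.6 CPM in the double-deficient libraries. Nr4a3, an orphan nuclear receptor gene, had -3.93 (standard error 1.25), lay between 0 and 7.49 CPM, and had -0.57 without the libraries over 70%. Of 31 mTOR genes 2 lay above and 2 below, with a median of 0.10. Rptor, the defining subunit of mTORC1, had 110, 105 and 101 CPM in the Plcg1+/+Plcg2+/+ libraries, 67.7, 78.4 and 90.3 CPM in the Plcg1-/-Plcg2+/+ libraries, 72.0, 116 and 97.3 CPM in the Plcg1+/+Plcg2-/- libraries and 76.7, 174 and 125 CPM in the Plcg1-/-Plcg2-/- libraries. The genotypes overlapped, and the departure was 0.81 (standard error 0.36, unadjusted p = 0.042, edgeR adjusted p = 0.303). Rictor, the subunit of mTORC2, had -0.12 (standard error 0.20), the mTORC1 inhibitor gene Sesn1 0.52 (standard error 0.22) and the insulin receptor substrate gene Irs1 -2.70 (standard error 0.93), which was -0.54 with the percent on no gene as a covariate and -0.48 without the libraries over 70%.

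The median departure of cell cycle genes depended on the covariate and on the libraries kept. With 12 libraries and no covariate, none of 40 mitosis genes had an unadjusted p of at most 0.05 by edgeR, and DESeq2 called 0, with a median departure of 0.08. Their median effect was -0.43 with loss of Plcg1, -0.19 with loss of Plcg2 and -0.54 with loss of both, and the double-deficient median lay near the sum of the others. Ccnb1, the mitotic cyclin, had 0.28 (standard error 0.31) and the phosphatase gene Cdc25b 0.74 (standard error 0.61). With the percent on no gene as a covariate the mitosis median was 0.76, and without the libraries over 70% it was 1.09 (1.08 in DESeq2). Under that covariate Cdc25b had 2.04 and Pcna 1.14. With upper-quartile factors it was -0.061. Of 36 DNA replication genes 1 lay above and 0 below, the primase subunit gene Prim2 with 0.67 (standard error 0.27, unadjusted p = 0.0273, edgeR adjusted p = 0.254), and Tyms and Pcna had 0.58 and 0.48 with standard errors of 0.27 and 0.35.

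Oxidative phosphorylation and ribosomal protein genes had small median departures, with members mostly above 0. Of 35 oxidative phosphorylation genes 34 lay above 0, with a median of 0.22, a range from -0.03 to 0.42 and 0 genes at an unadjusted p of at most 0.05 in edgeR and 0 calls in DESeq2. Uqcrc2, a subunit of complex III, had 0.38 (standard error 0.18). Of 89 ribosomal protein genes 79 lay above 0, with a median of 0.20 and a range from -1.62 to 1.32. At an unadjusted p of at most 0.05 in edgeR, 2 lay above, Rps16 and Rpl13a with 0.41 each and standard errors of 0.17. Both medians are near that of the highest quartile of level, 0.13, while that of all tested genes was -0.02. With upper-quartile factors they were 0.094 and 0.084 while the median of all tested genes moved to -0.15, so their distance from all genes stayed and their distance from 0 did not. The glycolysis list (15 genes) and the cholesterol and fatty acid synthesis list (22 genes) had medians of 0.11 and 0.09 with no gene at an unadjusted p of at most 0.05 in edgeR and 0 calls in DESeq2. Their signs were mixed, with 10 glycolysis genes above 0 and 5 below, and 13 cholesterol and fatty acid genes above and 9 below. With the percent on no gene as a covariate their medians were -0.50 and -0.20. Of 17 ER stress and ATF4 target genes 1 lay above, the pseudokinase gene Trib3 with 2.08 (standard error 0.84), and 1 below, the cystine transporter gene Slc7a11 with -3.39 (standard error 0.88, and -1.37 with the percent on no gene as a covariate).

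Other lists are given by their counts. Of 24 surface molecules of B cell stages 1 lay above at an unadjusted p of at most 0.05, the stage marker Bst1 with 1.16 (standard error 0.53), and 3 below. The interleukin-2 receptor chain gene Il2ra, which encodes the pre-B cell marker CD25, was below with -1.65 (standard error 0.67), and 2.93 to 8.59 CPM in the double-deficient libraries against 10.9 to 74.3 CPM in the others. It had -0.74 with the percent on no gene as a covariate, and on the linear scale a departure of the other sign, 0.48 CPM. Under that covariate Bst1 and Heyl, a Notch target described next, had 2.29 and 2.74. Of 20 Notch genes 1 lay above, Heyl with 1.60 (standard error 0.70), and 1 below, the ubiquitin ligase gene Dtx1 with -2.31 (standard error 0.64, unadjusted p = 0.00373, edgeR adjusted p = 0.187). The target gene Hes5 had 1.42 (standard error 0.66). Of 27 interferon-stimulated genes 0 lay above and 1 below, with a median of -0.01, and the Bcl2 family list of 14 genes had a median of 0.12 with 0 genes on either side in edgeR and 0 calls in DESeq2.

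The genes that the study itself listed, chosen on these libraries and so no independent evidence, had 2 of 44 above and 8 below at an unadjusted p of at most 0.05 for the B lineage, beside 1.96% and 13.3% of all tested genes, with a median of -0.20. The share below falls with level, to 33 and 20 of 3750 genes in the upper quartiles. For IL-7 signalling 0 of 12 lay above and 1 below, with a median of -0.35. For the cell cycle 0 of 34 lay above and 1 below, Zfp318 with -1.04 (standard error 0.39), and the median was -0.01.

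Markers of other cells are set beside a median of -0.02 over all tested genes. Their medians were -0.70 over 16 neutrophil and monocyte genes, of which all 16 lay below 0, -0.94 over 21 T, NK and innate lymphoid genes, -0.59 over 15 macrophage genes and -0.35 over 14 stem and progenitor genes. They were 0.33 over 15 plasmacytoid dendritic cell genes and 0.49 over 10 erythroid genes, and the 12 defining genes of B cell progenitors had 0.84. At an unadjusted p of at most 0.05, 2 T, NK and innate lymphoid genes and 1 macrophage gene lay below. Above lay 1 gene of the plasmacytoid dendritic cell list, Tcf4 with 0.74 (standard error 0.29), and 1 B cell progenitor gene. Zap70, a kinase gene of the T, NK and innate lymphoid list, had 1.07 (standard error 0.51), with 50.2 to 63.6 CPM in the double-deficient libraries and 9.47 to 46.1 CPM in the others, and 2.08 with the percent on no gene as a covariate. In that list 5 genes lay above 0 and 16 below. With the percent on no gene as a covariate the neutrophil and monocyte median was -2.46 and that of the B cell progenitor genes 2.15.

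**Figure D5:**
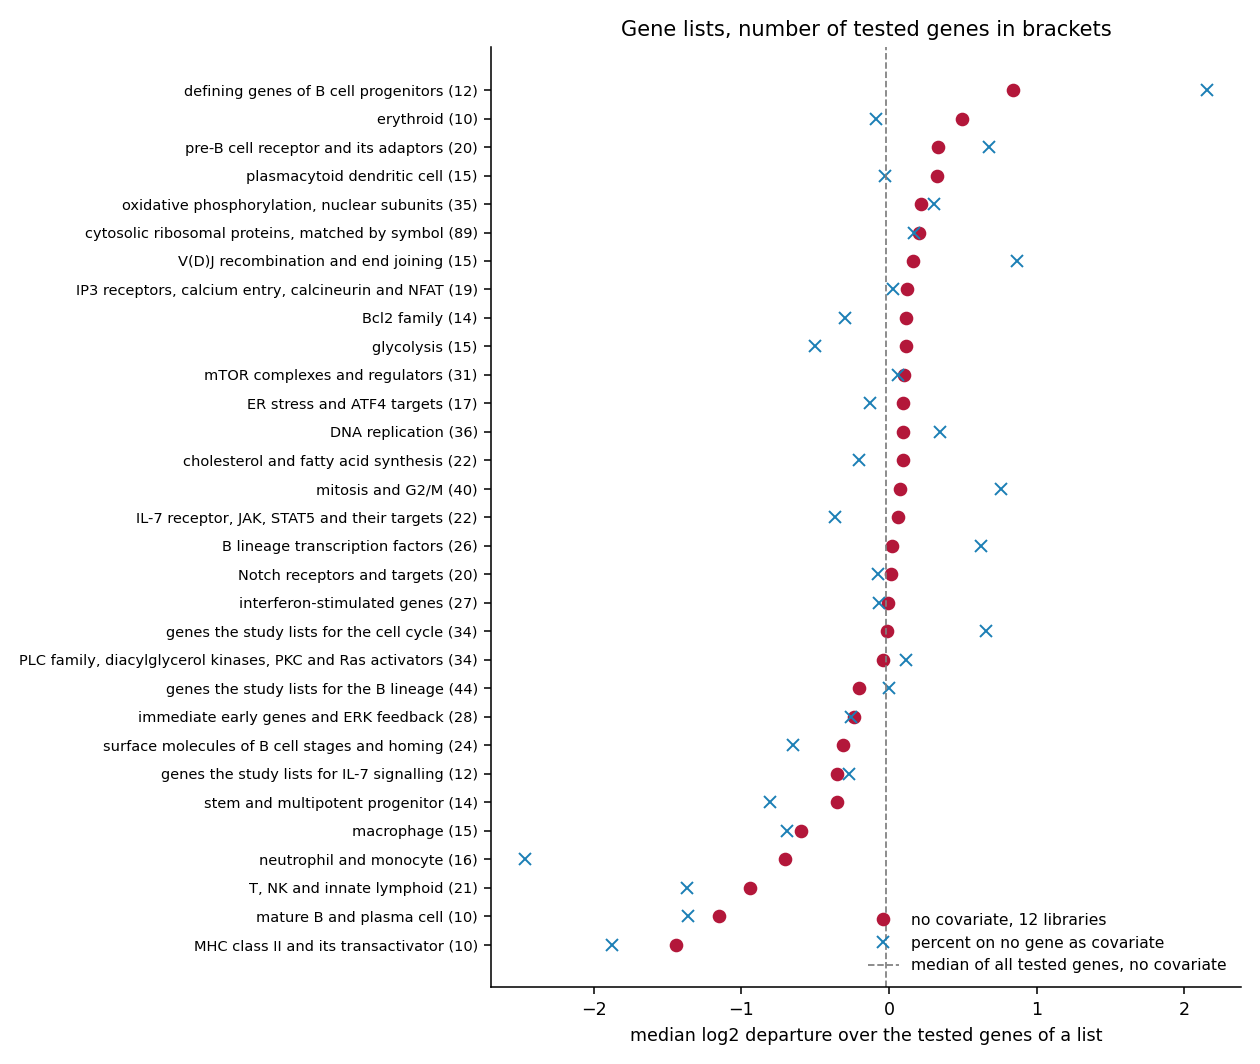
Median log2 departure over the tested genes of the lists of pathways and cell types (the silent receptor genes are not drawn), with 12 libraries and no covariate (points) and with the percent of reads on no gene as a covariate (crosses). Of the 1471 silent receptor genes, the 45 that passed the count filter had a median of -4.50. The filter admitted genes with enough reads in as few as 3 libraries, so that median is no separate result. Of the lists drawn, MHC class II lies lowest at -1.44 and the B cell progenitor genes highest at 0.84, beside a median of -0.02 over all tested genes.

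Outside the lists, the genes of lowest unadjusted p are described without a call by edgeR, each with an adjusted p of 0.187. Above the sum and with the double-deficient libraries apart were Abcg2, an efflux transporter, with 27.0 to 34.7 CPM in the double-deficient libraries against 11.6 to 18.7 CPM in the others and a departure of 1.18 (standard error 0.28), and Sepp1, the plasma selenoprotein gene, with 282 to 373 CPM against 170 to 246 CPM and 0.90 (standard error 0.22). Acy3, an aminoacylase gene, had 8.59 to 27.9 CPM against 3.21 to 6.24 CPM and 2.49 (standard error 0.54), and A630023P12Rik and 1700048O20Rik had 3.23 and 2.42 (standard errors 0.74 and 0.59). Each of these genes was highest in the 3 double-deficient libraries.

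Chchd3, which encodes a part of the mitochondrial cristae complex, had a small departure of 0.61 (standard error 0.14), with 92.3 to 94.8 CPM in the double-deficient libraries, 82.4 to 87.7 CPM in the Plcg1+/+Plcg2+/+ libraries and 68.2 to 79.1 CPM in the single-deficient libraries. Cfl2, an actin-severing cofilin gene, had 0.94 (standard error 0.19), with 32.8 to 40.6 CPM in the single-deficient libraries and 56.3 to 58.4 CPM in the Plcg1+/+Plcg2+/+ libraries. Tmem181b-ps, a pseudogene whose reads may belong to a near copy, had 1.26 (standard error 0.31). These 3 genes were on average lower in both single-deficient genotypes than in the double-deficient one.

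Below the sum, Kcnk13, a potassium channel gene, had 3.82 to 5.39 CPM in the Plcg1+/+Plcg2+/+ libraries, 2.08 to 7.15 CPM in the single-deficient libraries and 0.331, 0.298 and 0.133 CPM in the double-deficient libraries, with a departure of -3.93 (standard error 0.81). Aldh5a1, an enzyme gene of GABA breakdown, had 1.20 to 2.26 CPM in the Plcg1+/+Plcg2+/+ libraries, 4.20 to 8.85 CPM in the single-deficient libraries and 2.64 to 2.98 CPM in the double-deficient libraries, with -3.14 (standard error 0.60). Rnaset2b, a ribonuclease gene with a near-identical copy to which its reads may belong, had -4.40 (standard error 0.85). Mme, a surface peptidase gene, and Kazn, which encodes a cell junction protein, lay at or below 10.9 and 3.13 CPM and had -4.96 and -4.89 (standard errors 1.02 and 0.93). Mme had -2.68 and Kazn -4.54 with the percent on no gene as a covariate.

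Most signs were the same on another scale. On the linear scale of mean CPM the departure had the sign of the log2 departure for 110 of 113 genes picked by the naming rule and for 99.8% of the 2294 genes with an unadjusted p of at most 0.05. The exceptions among the 113 were Pax5, Il2ra and Ddx3y, with linear departures of 1.38, 0.48 and 12.3 CPM against log2 departures of -0.10, -1.65 and -0.67. The linear departure of Serinc3 was -1982 CPM and that of Ciita -29.4 CPM.

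The same 2 by 2 contrast was set beside that in CLPs, the lymphoid progenitors sorted from the same mice. In CLPs 3 of 15209 genes were called by edgeR, 2 above and 1 below. Serinc3 had a departure of -2.40 in CLPs (standard error 0.27, edgeR adjusted p = 0.00851), with 260.5 to 428.5 CPM in the double-deficient libraries and 1134 to 2073 CPM in the others. BC002163 had 3.32 (standard error 0.36, edgeR adjusted p = 0.00851), with 0.693 to 0.954 CPM in Plcg1-/-Plcg2+/+ CLPs and 4.61 to 7.22 CPM in the other 3 genotypes. Eps8l1 had 2.92, Mmp14 -1.93 and Ciita -2.09, with edgeR adjusted p of 0.801, 0.862 and 0.862. A test of the difference between both populations, with the mouse as a block, called 0 of 17212 genes by edgeR, with 487 at an unadjusted p of at most 0.05. CLP libraries had between 17.9% and 45.2% of reads on no gene, less than any B cell progenitor library, and the lists were not compared further.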

How the data were processed

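Poly(A) RNA of sorted cells was sequenced on an Illumina NextSeq instrument from libraries made with a kit that does not mark strand. Reads were aligned to mm10 with STAR 2.5.0a, per the submitters' processing notes, and the authors deposited raw counts of reads on 24421 genes per library and, on 2 more lines, of reads without a gene and of ambiguous reads. The program that counted them and its strand setting are not given in the sources used here. These 2 lines stayed out of library sizes and tests and held 59.9% to 87.3% (no gene) and 0.11% to 0.42% (ambiguous) of the reads.

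The 12 B cell progenitor libraries were fitted together with edgeR 4.0.16 in R 4.3.3 (TMM, filterByExpr, glmQLFTest, Benjamini-Hochberg adjustment over 15001 genes, no covariate). Standard errors came from the F statistic. DESeq2 1.42.0, limma 3.58.1, other scalings and filters, a replicate block, covariates and each library left out were alternatives. An edgeR or DESeq2 filter at a mean of 10 CPM and a receptor covariate were added after seeing the data. So was DESeq2 with the percent on no gene as a covariate or without the libraries over 70%. Tests over libraries were exact permutations in Python 3.11.15, and figures were drawn with matplotlib 3.10.9. The edgeR and DESeq2 fits were tested on simulated counts first. Genes were matched to RefSeq positions on GRCm38.p6 by symbol (24300 of 24421).

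The genes named were Plcg1, Plcg2, Il7r, those called, the 8 of lowest unadjusted p in each direction, the 5 of lowest DESeq2 adjusted p in each direction, up to 3 genes per list and Ebf1, Pax5, Tcf3, Rptor and Rictor, of which the text gives a part. Other genes stand as list members or are said to be outside the rule. The comparison, the lists and the genes were chosen with earlier results of these data known. Between replicates, chi-square over its degrees of freedom was 8.28 to 38.3, so no library was counted as a copy of another.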

Additional observations from a re-analysis of the deposited data

How the results depend on the processing

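The count of genes departing from additivity was 4 with RLE factors, upper-quartile factors, library totals, no filter on low counts, the robust fit, adjusted p alone and without sex-linked genes, and 3 with limma voom. It was 642 with DESeq2, 2 in libraries thinned to the smallest and 0 in edgeR with the percent on no gene as a covariate or without the libraries over 70%, for which nominal counts and DESeq2 are given above. Of the alternatives added after seeing the data, edgeR at a mean of at least 10 CPM called 2, DESeq2 at that mean 6, DESeq2 without the libraries over 70% 108, DESeq2 with the percent on no gene as a covariate 120, and edgeR with the receptor level as a covariate 0 (578 above and 1019 below at an unadjusted p of at most 0.05). Leaving out each library gave between 0 and 5 calls. Causes were not tested.

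The genotypes share replicate numbers, which are not stated to mark a batch. Libraries with 1 number deviated together with a mean correlation of 0.097 (from -0.52 to 0.71) against -0.05 for other numbers, and 8 of 12 libraries correlated best with their own number. Adding the replicate block to edgeR, the count was 3, of which 3 were among the 4 called without it, and Mmp14 was the call lost.

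Of 113 genes picked by the naming rule 97 kept their sign under all alternatives run. Among genes named above, Pax5 changed sign to 0.074 with limma voom, 0.64 with the percent on no gene as a covariate (0.60 in DESeq2), 0.67 without the libraries over 70% (0.64 in DESeq2) and 0.47 with the receptor covariate, and took values from -0.44 to 0.29 with each library left out. Rictor took values from -0.20 to 0.037 with each library left out. The departure of the share of reads on no gene was -21.0 points with ambiguous reads left out, -1.54 as log2 odds and from -25.8 to -15.4 points with each library left out. The difference between B cell progenitors and CLPs gave 0 calls in edgeR without the mouse block and without each mouse in turn, with 50 genes above and 708 below at an unadjusted p of at most 0.05 without the block. The median departure of all tested genes was -0.15 with upper-quartile factors, -0.14 with library totals and -0.61 with no filter. Departures of genes under 3.46 CPM rest on few reads in the smallest libraries.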
